A study of Glycine max with 8 samples.

Results

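Among the transcripts measured in mature soybean (Glycine max) leaves, 734 loci carry no gene ID of the soybean annotation. They are the rows of the expression table whose ID starts with a word for an unannotated locus in place of Glyma, and make up 2.31% of the 31785 listed rows. The other 31051 rows are annotated genes. The choice of these loci used the ID and no measured value. Each ID ends in a number, and the loci are called here by that number, as in locus 1360.

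Loci of this kind are found when aligned RNA sequencing reads pile up where the annotation has no gene model. Such transcripts can be long noncoding RNAs, transcripts of transposable elements, coding genes that the annotation missed, or unannotated ends and antisense strands of known genes. The sources used here do not say how these loci were assembled, where they lie or on which strand they were counted, and no role is attached to any of them. No genome was used here, so no sequence is shown.

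The leaves came from OX5 and from wild type (WT), both supplied with enough phosphorus and collected at the full-seed stage, R6. Each line had 4 libraries. The labels do not say what was changed in OX5 or by which promoter, nor whether libraries came from separate plants. The p-values therefore measure only the spread between these libraries, which may be technical. The identity of the tissue as leaf was not checked with marker genes, because the table does not pair IDs with gene names. Abundance was given as FPKM, that is, fragments scaled to transcript length and to the total fragments of the library, and whole reads were recovered from the steps of the FPKM values. The recovered reads numbered 17553644 to 19159839 per library in OX5 and 18785836 to 19175792 in WT. The OX5 libraries fell into pairs, as the correlation between libraries shows over annotated genes on the log2(FPKM + 1) scale. The r was 0.982 between OX5 replicates 1 and 2, and 0.978 between OX5 replicates 3 and 4, while the other pairs of OX5 libraries lay between 0.901 and 0.938.

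The unannotated loci were low in abundance and short. Over the 8 libraries their mean level had a median of 1.93 FPKM (interquartile range 1.13 to 3.92), against 6.54 FPKM in annotated genes (2.36 to 16.4). Of the 734 loci, 14 lay below 0.5 FPKM, 360 lay between 0.5 and 2 FPKM and 299 between 2 and 10 FPKM. A further 43 lay between 10 and 50 FPKM and 18 at 50 FPKM or more. These last 2 ranges held 5.86% and 2.45% of the unannotated loci, against 30.8% and 7.15% of annotated genes. The difference between the kinds of row was not tested.

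**Figure D1:**
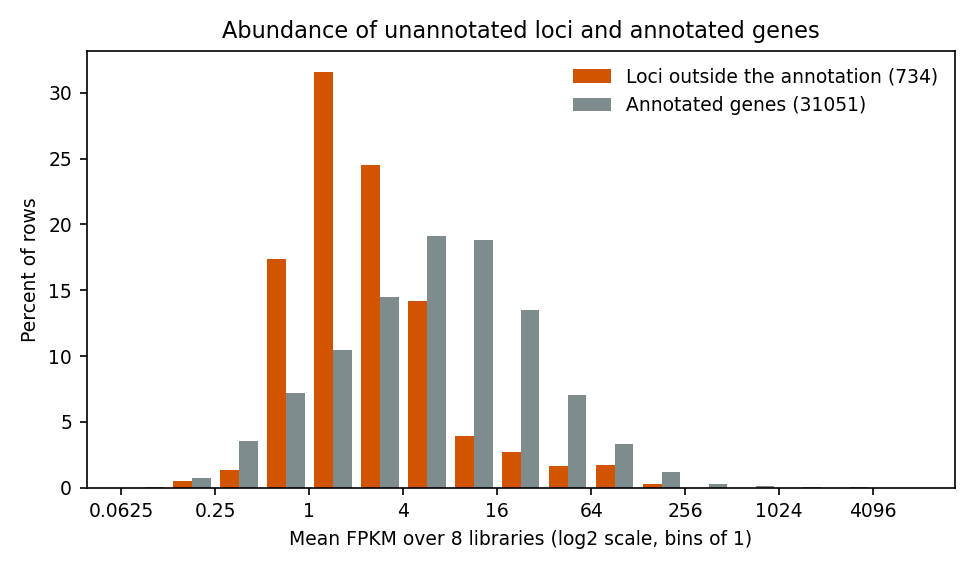
Share of rows by mean FPKM over the 8 libraries, in bins of 1 on a log2 scale, for the 734 unannotated loci and the 31051 annotated genes. The fullest bin of the unannotated loci, from 1 to 2 FPKM, holds 31.6% of them, while annotated genes peak at higher values.

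The length implied by the FPKM steps ran from 201 to 16439 bases, with a median of 1112 bases, against a median of 1886 bases in annotated genes. It is a length in the authors' counting, and where every count of a locus shares a factor it can be a fraction of the true one. Lengths under 500 bases were found in 95 unannotated loci (12.9%), against 2.78% of annotated genes, and lengths of 3000 bases or more in 58 (7.90%), against 22.3%. No unannotated locus was shorter than 201 bases, whereas 197 annotated genes were shorter than 200. The lower abundance was seen in every length class. Among loci of 500 to 1000 bases the median was 1.82 FPKM (n = 231), against 10.7 FPKM in annotated genes (n = 3578), and among those of 1000 to 2000 bases it was 1.48 FPKM (n = 261), against 7.85 FPKM (n = 12428). The shortest class, under 500 bases, had the highest median among the unannotated loci, at 4.25 FPKM (n = 95). Listed rows had at least 22 reads over the 8 libraries, and the same reads are a higher FPKM in a shorter locus. The part of this limit was not tested.

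Low level and short length together left few reads per locus. The median number of reads at an unannotated locus, averaged over the 8 libraries, was 39.4, against 236 at an annotated gene. All unannotated loci together held 83778 to 97186 reads in the OX5 libraries, or 0.477% to 0.507% of the reads, and 90286 to 96232 reads in the WT libraries, or 0.477% to 0.502%.

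A small number of loci carried much of the signal. The 10 most abundant made up 28.4% of the summed mean FPKM of the 734 loci, and the 50 most abundant 59.9%. Locus 1200 was the highest, with 226, 258, 226 and 255 FPKM in OX5 replicates 1 to 4 and 173, 197, 197 and 216 FPKM in WT replicates 1 to 4. It has an implied length of 2970 bases and ranked 217 among all 31785 rows. Its OX5 values all lay above its WT values, but its log2 fold change of 0.30 (SE 0.13) did not pass the test described further on (limma adjusted p = 0.227). Locus 883, of 473 bases, came next with 194, 161, 219 and 228 FPKM in OX5 replicates 1 to 4 and 151, 248, 222 and 291 FPKM in WT replicates 1 to 4. Its lines overlapped.

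The other 8 of the 10 most abundant loci averaged between 80.3 FPKM and 150 FPKM in OX5, apart from loci 695 and 696, which averaged 52.6 and 61.0 FPKM there. Locus 851 had 92.8 to 114 FPKM in OX5 and 84.7 to 107 FPKM in WT. Locus 1850 had 87.6 to 102 FPKM in OX5 and 73.6 to 88.4 FPKM in WT. Locus 1427 averaged 90.2 ± 19.8 FPKM in OX5 and 124 ± 34.2 FPKM in WT (SD, n = 4 each). Loci 117 and 1608 varied widely in both lines. Locus 117 had 136, 121, 92.8 and 72.2 FPKM in OX5 replicates 1 to 4 and 38.4, 93.9, 80.4 and 110 FPKM in WT replicates 1 to 4. Locus 1608 had 179, 190, 130 and 99.3 FPKM in OX5 replicates 1 to 4 and 161, 64.5, 110 and 57.4 FPKM in WT replicates 1 to 4. At both loci OX5 replicates 1 and 2 were the highest of their line, and the lines overlapped.

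At the other end, locus 1372 had the lowest mean of all, with 0.137, 0.111, 0.166 and 0.145 FPKM in OX5 replicates 1 to 4 and 0.131, 0.157, 0.113 and 0.104 FPKM in WT replicates 1 to 4. Since its implied length of 16439 bases is the longest among the 734, these levels still rest on 35 to 48 reads per library in OX5 and 33 to 49 in WT. Locus 461, of 6461 bases, averaged 0.132 ± 0.0654 FPKM in OX5 and 0.169 ± 0.0468 FPKM in WT (SD, n = 4 each). The lines overlapped at both loci.

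Most of the listed unannotated loci were detected in every library. Every listed row, of either kind, had at least 22 reads over the 8 libraries. The shares below hold for listed rows only, since loci with fewer reads are not among them. A read was present in all 8 libraries at 694 of the 734 loci (94.6%) and at 98.5% of annotated genes. At least 1 library was at 0 at the other 40 loci (5.45%), against 1.52% of annotated genes. The lowest number of libraries with a read was 3, at 1 locus. At the higher bar of 1 FPKM, 331 loci (45.1%) passed in all 8 libraries, against 76.6% of annotated genes, and 15 loci (2.04%) passed in none, against 4.80%. The loci that passed in 1 to 7 libraries therefore made up the majority, and for them detection at 1 FPKM depends on the library.

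Per library, 553, 568, 573 and 535 loci reached 1 FPKM in OX5 replicates 1 to 4, and 519, 530, 535 and 544 in WT replicates 1 to 4. The OX5 mean was 557 ± 17.1 and the WT mean 532 ± 10.4 (SD, n = 4 each), and the lines overlapped, since OX5 replicate 4 lay among the WT libraries. Loci with any read numbered 724 to 728 in OX5 libraries and 717 to 724 in WT libraries. Loci at 10 FPKM or more ran the other way, at 61 to 66 in OX5 libraries and 65 to 72 in WT libraries.

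The median level of the unannotated loci did not overlap between the lines in FPKM as deposited, but did overlap on 3 other scales. It was 1.98, 2.08, 2.05 and 1.93 FPKM in OX5 replicates 1 to 4 and 1.63, 1.81, 1.80 and 1.85 FPKM in WT replicates 1 to 4. With each library scaled to the same summed FPKM, the medians were 1.96, 2.07, 2.03 and 1.83 in OX5 replicates 1 to 4 and 1.62, 1.85, 1.84 and 1.91 in WT replicates 1 to 4, so that OX5 replicate 4 lay below WT replicates 2 to 4. With median-ratio size factors OX5 replicate 1, at 1.82, lay just below WT replicate 4, at 1.83. The median reads per locus were 36 to 42 in OX5 and 36 to 39 in WT. In annotated genes the medians overlapped, averaging 6.47 ± 0.582 FPKM in OX5 and 6.25 ± 0.167 FPKM in WT (SD, n = 4 each). The summed FPKM of the unannotated loci, as a share of each library, was 0.755%, 0.727%, 0.738% and 0.692% in OX5 replicates 1 to 4 and 0.751%, 0.767%, 0.762% and 0.795% in WT replicates 1 to 4. OX5 replicate 1 lay within the WT range and the other OX5 libraries below it. By reads, which weight long loci more, the share averaged 0.496% ± 0.0135 in OX5 and 0.488% ± 0.0106 in WT (SD, n = 4 each), so the order of the lines changed with the measure. These are descriptions of the libraries and were not tested. In leaf tissue, fewer cells with a transcript and less of it per cell cannot be told apart.

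**Figure D2:**
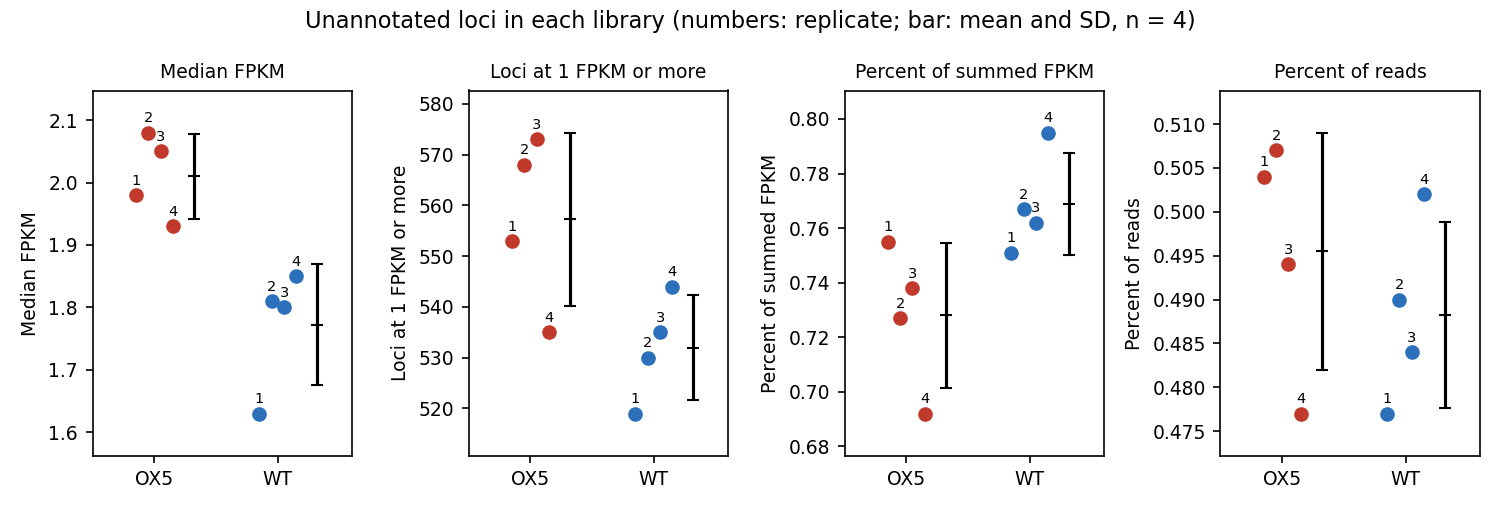
The 734 unannotated loci in each library, with OX5 left and WT right in each panel, for the median FPKM, the number of loci at 1 FPKM or more, the percent of summed FPKM and the percent of reads; points are libraries with their replicate number and the bar is the mean and SD (n = 4). The axes do not start at 0. The medians of OX5 (1.93 to 2.08 FPKM) lie above those of WT (1.63 to 1.85 FPKM) as deposited but not once libraries are scaled to the same summed FPKM (1.83 to 2.07 in OX5, 1.62 to 1.91 in WT), and the other 3 measures overlap between the lines.

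The correlation between libraries was lower over the unannotated loci than over annotated genes, and the pairs of OX5 libraries were seen here too. Among 720 unannotated loci with a mean of at least 0.5 FPKM, the median r of log2(FPKM + 1) was 0.861 between OX5 libraries (range 0.803 to 0.938, 6 pairs) and 0.919 between WT libraries (0.861 to 0.940, 6 pairs). Over 29704 annotated genes the same medians were 0.930 and 0.967. Over the unannotated loci, r reached 0.938 between OX5 replicates 1 and 2, and 0.936 between OX5 replicates 3 and 4, while the other 4 pairs of OX5 libraries reached at most 0.873. The points of these correlations are loci measured in the same 2 libraries, and unannotated loci have fewer reads than annotated genes. Their levels also span a narrower range (interquartile range 1.13 to 3.92 FPKM, against 2.36 to 16.4 FPKM over all listed rows of each kind), and r depends on that range. The part of each in the lower r was not tested.

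The spread between libraries of a line, as the SD of log2(FPKM + 1), had a median of 0.333 in OX5 and 0.284 in WT over the 720 unannotated loci, against 0.261 and 0.208 in annotated genes. At equal FPKM the unannotated loci had the larger median SD in each of 4 ranges of abundance and in both lines. Between 2 and 10 FPKM, for example, it was 0.339 in OX5 and 0.287 in WT (n = 299), against 0.271 and 0.215 in annotated genes (n = 12411). At equal reads the order depended on the number of reads. With 30 to 100 reads per library the median coefficient of variation was 33.8% in OX5 and 28.3% in WT for unannotated loci (n = 281), and 36.0% and 29.0% for annotated genes (n = 5917). With 10 to 30 reads it was 47.4% in OX5 and 44.7% in WT (n = 289), against 55.2% and 46.6% (n = 3284). Counting error alone gives a median of 23.1% in OX5 and 23.7% in WT at those unannotated loci. With 100 to 300 reads the values were 18.9% and 21.2% for unannotated loci (n = 101) and 22.4% and 17.9% for annotated genes (n = 8283), so the order differed between the lines, as it did with 300 to 1000 reads, at 15.1% and 16.8% for unannotated loci (n = 48) against 16.1% and 13.1%. Unannotated loci had the larger values in both lines at the extremes, which hold few of them. With 1000 reads or more they had 23.4% in OX5 and 21.8% in WT (n = 10), against 16.1% and 13.9%, and with 3 to 10 reads 120% and 102% (n = 4), against 98.5% and 79.0%. Of the 720 loci, 422 (58.6%) had a larger SD in OX5 than in WT, against 61.7% of annotated genes.

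**Figure D3:**
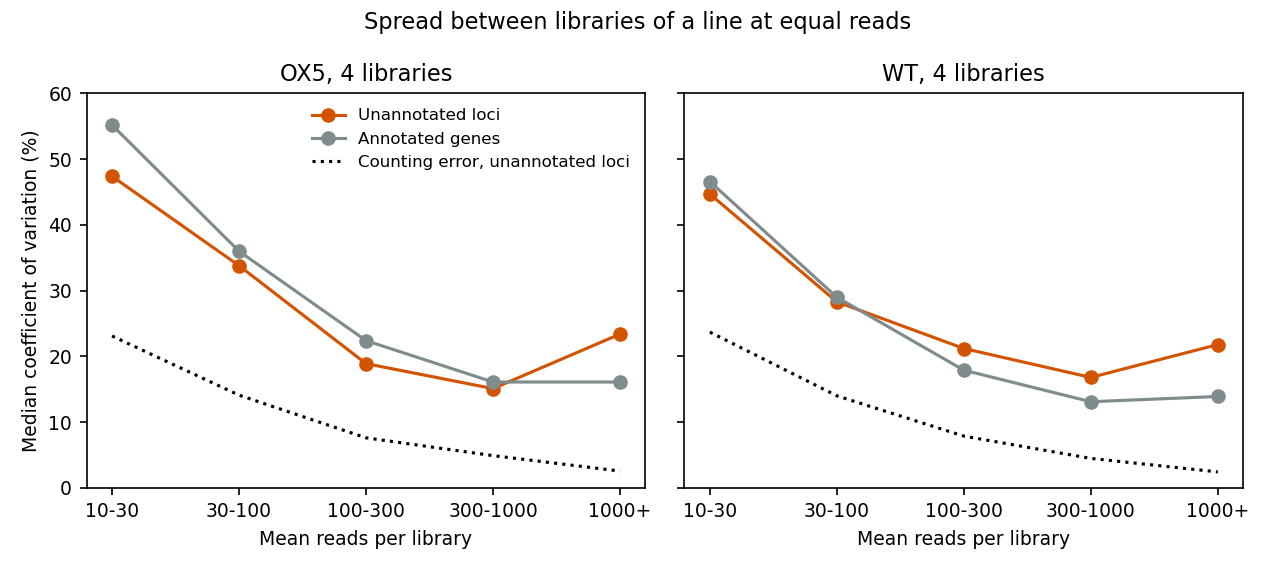
Median coefficient of variation of FPKM between the 4 libraries of OX5 (left) and WT (right), by mean reads per library, for unannotated loci and annotated genes; the dotted line is the median counting error of the unannotated loci. From 10 to 100 reads the unannotated loci lie at or below annotated genes (33.8% against 36.0% in OX5 at 30 to 100 reads), and the last bin holds only 10 unannotated loci.

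The loci with the widest spread within OX5 followed its pairs of libraries. Locus 179 had 2.28, 0.683, 8.45 and 16.8 FPKM in OX5 replicates 1 to 4 and 8.87, 10.7, 7.20 and 7.39 FPKM in WT replicates 1 to 4. Locus 642 had 3.86, 1.18, 8.71 and 21.0 FPKM in OX5 replicates 1 to 4 and 11.2, 8.86, 6.40 and 7.58 FPKM in WT replicates 1 to 4. Locus 1488 had 13.6, 4.61, 50.4 and 40.1 FPKM in OX5 replicates 1 to 4 and 31.2, 25.1, 47.0 and 79.6 FPKM in WT replicates 1 to 4. At all 3 loci OX5 replicates 1 and 2 were low and OX5 replicates 3 and 4 high. Locus 276, one of the 10 most abundant, had the same shape, with 37.4, 21.0, 96.3 and 166 FPKM in OX5 replicates 1 to 4 and 124, 120, 85.1 and 77.4 FPKM in WT replicates 1 to 4.

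Counted over all 720 tested loci, OX5 replicates 1 and 2 both lay above OX5 replicates 3 and 4 at 234 loci (32.5%) and both below at 187 loci (26.0%). Over all 30424 rows tested the shares were 46.2% and 20.6%. The pairs of OX5 libraries thus separated a majority of the unannotated loci, and of all rows.

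Within WT the widest spread was at locus 1971, which had 5.55, 4.96, 25.3 and 9.79 FPKM in OX5 replicates 1 to 4 and 117, 15.2, 60.2 and 12.9 FPKM in WT replicates 1 to 4. WT replicates 1 and 3 were high and WT replicates 2 and 4 overlapped the OX5 range. At locus 777 a single library stood out, since WT replicate 2 had 0.167 FPKM from 9 reads while the other WT libraries had 3.60 to 8.73 FPKM. Its OX5 libraries were close to each other, at 8.68 to 11.1 FPKM. Locus 915 had 3.00, 1.75, 4.53 and 2.58 FPKM in OX5 replicates 1 to 4 and 0.453, 0.659, 3.90 and 6.95 FPKM in WT replicates 1 to 4. The difference between the lines passed the test at none of these 3 loci (limma adjusted p = 0.199 at locus 1971, 0.212 at locus 777 and 0.777 at locus 915).

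Between the lines, 14 unannotated loci rose in OX5 leaves and 5 fell. The test was limma on log2(FPKM + 1), fitted on the 30424 rows with a mean of at least 0.5 FPKM, with Benjamini-Hochberg adjustment over all of them and a threshold of 0.05. Of the 734 loci, 720 passed the filter on low values and 14 did not. The rises made up 1.94% of the 720, against 1.38% of all rows tested, and the falls 0.694%, against 1.01%. Rises of at least 2-fold on the log2(FPKM + 1) scale numbered 10 (1.39%), against 0.578% of all rows, and such falls 3 (0.417%), against 0.634%. That scale understates changes of low rows, so some called loci past 2-fold in mean level are not counted here. The fold changes had a median of 0.05 in the log2 over the 720 loci and 0.04 over all rows tested. At an unadjusted p under 0.05 there were 146 loci (20.3%), against 21.7% of all rows. By mean FPKM over the 8 libraries, 7 of 360 loci (1.94%) at 0.5 to 2 FPKM rose, against 25 of 5496 annotated genes (0.455%). In that range 1 locus fell (0.278%), against 0.855% of annotated genes. The rises were 5 of 299 loci (1.67%, against 1.29%) at 2 to 10 FPKM and 1 of 43 (2.33%, against 1.99%) at 10 to 50 FPKM. At 50 FPKM or more 1 of 18 rose (5.56%, against 1.40%). These differences were not tested. The mean includes OX5, so a locus near 0 in WT passes the filter and enters its range through its OX5 values alone. Of the 14 rises, 9 lay under 1 FPKM in every WT library. In the fit without a filter, 13 unannotated loci rose and 6 fell. The part of the filter and the ranges in the shares of rises was not tested.

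At each of the 19 loci the ranges of OX5 and WT were separate. Over the 720 loci, every OX5 value lay above every WT value at 58 (8.06%) and below it at 23 (3.19%), against 8.87% and 5.35% of all rows tested.

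**Figure D4:**
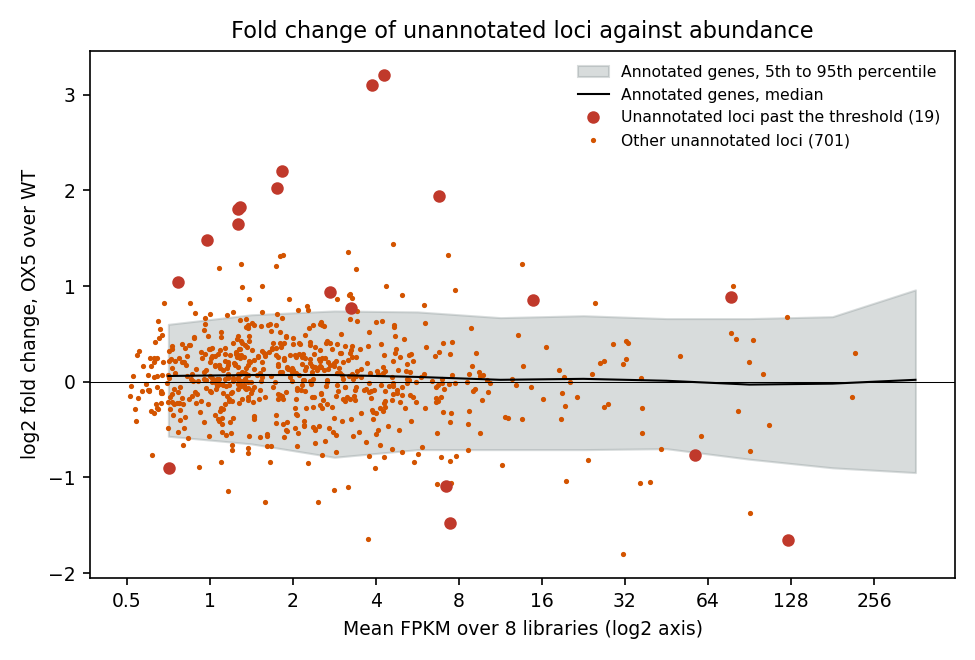
Log2 fold change of OX5 over WT, on the log2(FPKM + 1) scale, against mean FPKM for the 720 unannotated loci tested, with annotated genes as their median and the range from the 5th to the 95th percentile. The 14 risen loci reach 3.21, 7 of them at 0.5 to 2 FPKM, while the 5 fallen loci reach −1.66.

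As ratios of level, the largest rises were at loci with no read, or next to none, in WT. On the log2(FPKM + 1) scale, which understates changes of low rows, the order differed. There locus 1768, with reads in every library, rose by 1.94, and locus 2351, with no WT read, by 1.83. No WT library had a read at 5 loci, and each OX5 library had 26 to 204 reads at each of them. Together these 5 held 478, 360, 451 and 452 reads in OX5 replicates 1 to 4. Over all 31785 rows, 9 had 10 or more reads in each OX5 library and 0 in each WT library (0.0283%), of which 5 were unannotated and 4 annotated. The reverse, 0 reads in OX5 and 10 or more in each WT library, was met by 0 rows (0%).

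Locus 1360 had 7.94, 5.33, 9.98 and 10.9 FPKM in OX5 replicates 1 to 4, on 109 to 204 reads, and 0 in each WT library. The next number, locus 1361, had 10.4, 8.10, 6.31 and 6.16 FPKM in OX5 replicates 1 to 4, on 80 to 140 reads, and 0 in each WT library. At locus 1360 OX5 replicates 3 and 4 were the highest, and at locus 1361 OX5 replicates 1 and 2. A count of 3 reads per WT library would be 0.148 FPKM at locus 1360 and 0.214 FPKM at locus 1361. The OX5 mean was 57.6 times that level at locus 1360 and 36.2 times at locus 1361 (limma adjusted p = 0.000268 and 0.000128). These ratios allow for missed reads in WT but leave out the error and spread of OX5.

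Loci 234 and 235 are another pair of successive numbers. Locus 234 had 3.73, 2.67, 4.43 and 3.70 FPKM in OX5 replicates 1 to 4 and 0 in each WT library. Locus 235 had 2.89, 2.16, 2.36 and 2.72 FPKM in OX5 replicates 1 to 4 and 0 in each WT library. Against the same 3 reads per WT library, the OX5 mean was 23.3 times as high at locus 234 and 10.1 times at locus 235 (limma adjusted p = 0.000436 and 0.000470).

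Loci 2350 and 2351 were the third such pair. Locus 2351 had 2.91, 1.95, 2.83 and 2.64 FPKM in OX5 replicates 1 to 4 and 0 in each WT library. Its OX5 mean was 25.3 times the level of 3 reads per WT library (limma adjusted p = 0.000714). Locus 2350, of 333 bases, had 3.79, 3.75, 2.73 and 3.41 FPKM in OX5 replicates 1 to 4, and a single read in each of WT replicates 3 and 4, or 0.159 and 0.156 FPKM. Its read rate was 43.4 times as high in OX5, with a 95% exact interval of 11.7 to 365 from counting error alone (limma adjusted p = 0.000470). In all 6 loci of these pairs every OX5 library was far above every WT library.

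At 2 further loci WT replicate 1 alone had reads among the WT libraries. Locus 1207 had 1.46, 2.01, 2.33 and 1.85 FPKM in OX5 replicates 1 to 4, and 4 reads in WT replicate 1, or 0.160 FPKM. Its read rate was 47.9 times as high in OX5 (95% exact interval 18.4 to 178, limma adjusted p = 0.00425). Locus 2150 had 1.40, 1.64, 2.84 and 3.94 FPKM in OX5 replicates 1 to 4, and 5 reads in WT replicate 1, or 0.231 FPKM. The ratio of its read rates was 42.1 (95% exact interval 17.7 to 131, limma adjusted p = 0.0176). Locus 1113 had 1.99, 1.15, 1.55 and 0.810 FPKM in OX5 replicates 1 to 4 and 0, 0.478, 0 and 0.135 FPKM in WT replicates 1 to 4, on 9 reads in all (limma adjusted p = 0.0402). Reads were thus missing from at least 1 WT library at 9 of the 14 risen loci.

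**Figure D5:**
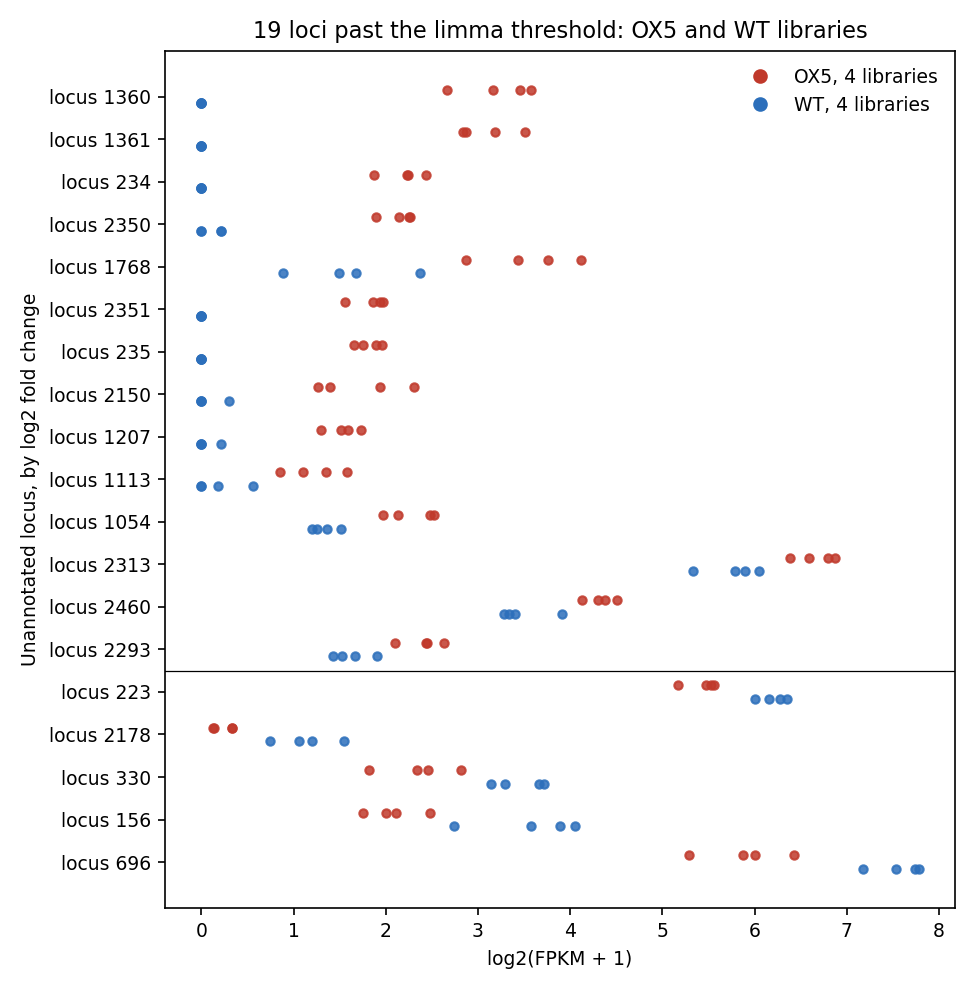
Values of the 19 unannotated loci past the limma threshold as log2(FPKM + 1), with the 4 OX5 libraries above the 4 WT libraries in each row and loci ordered by log2 fold change; the line parts the 14 rises from the 5 falls. WT points of 5 loci lie at 0, and the points of the lines do not overlap at any of the 19.

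The other 5 rises were at loci with reads in every library. Locus 1768 had the largest, with 16.3, 12.5, 6.34 and 9.85 FPKM in OX5 replicates 1 to 4 and 4.18, 0.849, 2.21 and 1.82 FPKM in WT replicates 1 to 4. OX5 replicates 1 and 2 were its highest libraries, and the fold change was 1.94 in the log2 (SE 0.34, limma adjusted p = 0.0315). Locus 2313, of 663 bases, was the most abundant locus that rose, with 110, 95.4, 82.4 and 116 FPKM in OX5 replicates 1 to 4 and 39.2, 58.7, 54.3 and 65.1 FPKM in WT replicates 1 to 4. The rise was 0.89 in the log2 (SE 0.18, limma adjusted p = 0.0418).

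Locus 2460 had 19.8, 21.8, 18.7 and 16.5 FPKM in OX5 replicates 1 to 4 and 9.07, 14.1, 8.71 and 9.59 FPKM in WT replicates 1 to 4. Its OX5 mean was 1.85 times its WT mean (limma adjusted p = 0.0385). Locus 1054 averaged 3.91 ± 0.886 FPKM in OX5 and 1.53 ± 0.246 FPKM in WT (SD, n = 4 each, limma adjusted p = 0.0299). Locus 2293 averaged 4.34 ± 0.783 FPKM in OX5 and 2.13 ± 0.464 FPKM in WT (SD, n = 4 each) and lay at the threshold (limma adjusted p = 0.0499).

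Of the 5 falls, the most abundant was locus 696, of 582 bases, with 63.1, 38.2, 85.1 and 57.7 FPKM in OX5 replicates 1 to 4 and 144, 212, 184 and 219 FPKM in WT replicates 1 to 4. On the log2(FPKM + 1) scale its fold change of −1.66 (SE 0.24, limma adjusted p = 0.0177) was the largest fall among the 5. The preceding number, locus 695, had 45.9, 24.2, 73.0 and 67.4 FPKM in OX5 replicates 1 to 4 and 97.1, 149, 116 and 155 FPKM in WT replicates 1 to 4. Its lines did not overlap either, but it missed the threshold (log2 fold change −1.37, SE 0.33, limma adjusted p = 0.0628). In both loci OX5 replicate 2 was the lowest library and OX5 replicate 3 the highest of the OX5 libraries.

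Locus 223 had 46.3, 35.1, 45.1 and 43.3 FPKM in OX5 replicates 1 to 4 and 70.5, 76.4, 63.1 and 80.9 FPKM in WT replicates 1 to 4, with a log2 fold change of −0.77 (SE 0.13, limma adjusted p = 0.0264). The next number, locus 224, had no read in any OX5 library and 0.198, 1.39, 0.333 and 1.43 FPKM in WT replicates 1 to 4, on 3 to 22 reads. It was under the minimum mean for the test. The WT mean was 4.04 times the 0.207 FPKM that 3 reads per OX5 library would give, but WT replicate 1 lay below that level. In the fit without a filter the locus did not pass (limma adjusted p = 0.106). A second locus without an OX5 read, locus 677, had 0.744, 0, 0.433 and 0.0490 FPKM in WT replicates 1 to 4, so the lines overlapped at 0.

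The remaining falls were lower in level. Locus 156 had 3.01, 2.37, 4.59 and 3.31 FPKM in OX5 replicates 1 to 4 and 5.69, 13.8, 10.9 and 15.6 FPKM in WT replicates 1 to 4 (limma adjusted p = 0.0393). Locus 330 averaged 4.29 ± 1.45 FPKM in OX5 and 10.1 ± 2.11 FPKM in WT (SD, n = 4 each, limma adjusted p = 0.0447). Locus 2178 averaged 0.178 ± 0.0931 FPKM in OX5, from 14 reads in all, and 1.24 ± 0.517 FPKM in WT, from 104 reads (SD, n = 4 each, limma adjusted p = 0.0430). As ratios of mean level, loci 2178 and 156 fell further than locus 696.

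The 19 calls differed in how far they depend on the fit. The 6 loci of the successive pairs 234 and 235, 1360 and 1361, and 2350 and 2351 passed in every one of 19 alternative fits in which they were tested, and they are the 6 that passed with the replicate number as a block. Locus 1207 passed in 17 of 18 such fits and locus 2150 in 15 of 18. At the 5 loci with no WT read, leaving out a WT library could not change the fold change, so those fits did not test it. The remaining 6 rises with fold changes down to 0.77 passed in 6 to 10 fits, and the 5 falls in 7 to 14. With 1 library left out, 7 to 16 of the 19 passed again, and the total called, which can include other loci, was 7 to 22. Both were lowest without WT replicate 3 (7 rises, 0 falls). Without WT replicate 2 there were 9 rises and 0 falls, without OX5 replicate 1 8 rises and 0 falls, and without OX5 replicate 2 8 rises and 1 fall. Without WT replicate 4 there were 9 rises and 1 fall, and without OX5 replicate 4 10 rises and 2 falls. Without both OX5 replicates 1 and 2, 9 loci rose and 0 fell, and without both OX5 replicates 3 and 4, 58 rose and 46 fell.

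Successive numbers did not in general go with a shared profile. Numbers ran from 3 to 2483, so that most numbers up to the highest are not in the table, and 251 pairs of loci had successive numbers. In 244 such pairs with both loci tested, the median r over the 8 libraries was 0.01, against 0.02 over all 258840 pairs of tested loci. An r of 0.9 or more was found in 6 of the 244 pairs (2.46%), against 0.402% of all pairs. The 6 were loci 234 and 235 (r = 0.99), 695 and 696 (0.95), 1360 and 1361 (0.97), 2063 and 2064 (0.91), 2129 and 2130 (0.91) and 2350 and 2351 (0.98). In 3 of these pairs both loci rose, and a difference between the lines at both loci by itself gives a high r. Loci 2063, 2064, 2129 and 2130 did not pass the test between the lines. Whether successive numbers lie next to each other in the genome is not stated, and reads shared between overlapping or antisense loci cannot be told apart without the strand setting.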

How the data were processed

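RNA sequencing of 8 leaf libraries, 4 each of OX5 and WT, was deposited as 1 table of FPKM with 4 decimals, made by the authors, and 0 columns of values were left unused. The aligners HISAT2 2.1.0, Bowtie2 2.2.3 and TopHat2, the counter HTSeq 0.6.0 and CASAVA are listed, without their roles, per the submitters' processing notes. How unannotated loci were assembled and the strand setting are not given in the sources used. A row that names no gene holds no value and was left out.

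Reads were recovered as the shortest whole-number length at which all 8 values of a row are whole reads. This solved 100% of rows, with 99 in 100 values within 0.0062 reads of a whole read, and was checked on simulated data. Differences were tested with limma 3.58.1 in R 4.3.3, with a variance trend and no replicate block, on log2(FPKM + 1) for rows with a mean of at least 0.5 FPKM. Fold changes on this scale understate those of low rows. Of 28 pairs of libraries none agreed within counting noise, so none was merged, which does not show that they come from separate plants. The chi-square per degree of freedom was 10.9 between OX5 replicates 1 and 2 and 17.3 between OX5 replicates 3 and 4, against 44.8 to 93.3 between the other OX5 pairs and 21.5 to 80.5 between WT libraries. If such a pair shared a plant, p-values would be too small.

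Named were the 10 most abundant loci, all 19 called, the 3 with the widest spread in each line, loci at 0 in every library of 1 line only, and the 3 of lowest mean. Loci 2063, 2064, 2129 and 2130 were named for their correlation after values were seen, and the spread at equal reads, the profiles of successive numbers and the ratios of read rates were added then too. Members, rules and lists were chosen with earlier results of these data known. Alternatives covered pseudocount, filter, scaling, library weights, replicate block, limma-voom on reads and leaving out libraries. Python 3.11.15, numpy 2.4.6 and pandas 2.3.3 were used. Intervals cover counting error only, and ratios to a level of 3 reads leave out the error and spread of the other line.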

Additional observations from a re-analysis of the deposited data

Results flagged for a closer look

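A single library far from the other 3 of its line was looked for in 81 sets of 4 values and found in 3. That is no more than chance gives, at about 1 in 20. At locus 1207, WT replicate 1 had 0.160 FPKM and the other WT libraries had 0. At locus 2150, WT replicate 1 had 0.231 FPKM and the other WT libraries had 0. At locus 2460, WT replicate 2 had 14.1 FPKM, while the other WT libraries had 8.71 to 9.59 FPKM. The first 2 values rest on 4 and 5 reads, and with the other WT libraries at 0 any value above 0 would be flagged.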

How the results depend on the processing

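Against 19 unannotated loci and 710 annotated genes called, library quality weights gave 195 and 9309, limma-voom on recovered reads 12 and 424, and the replicate block 6 and 50. When OX5 replicates 1 and 2 were left out, 9 loci and 233 genes were called, against 104 loci and 5399 genes when OX5 replicates 3 and 4 were. A 2-fold minimum on the log2(FPKM + 1) scale left 356 annotated genes. Leaving out 1 library gave 7 to 22 unannotated loci and 51 to 739 annotated genes. The other fits kept both counts within 1.5 times, and no called locus changed direction in any fit. Non-overlapping loci numbered 81, against 97 to 123 with 1 library left out, 195 without OX5 replicates 1 and 2 and 275 without OX5 replicates 3 and 4; these last 2 alternatives were chosen after seeing the data, and fewer libraries make non-overlap easier. The share of summed FPKM, 0.728% in OX5 and 0.769% in WT, was 0.496% and 0.488% by reads and 0.688% and 0.735% without locus 1200, and with 1 library left out it was 0.719% to 0.740% in OX5 and 0.760% to 0.774% in WT. Detected loci per library averaged 557 in OX5 and 532 in WT at 1 FPKM, 726 and 720 above 0, 718 and 716 at 0.1 FPKM, 63.2 and 67.2 at 10 FPKM, and 659 and 657 at 10 reads. The median level averaged 1.97 FPKM in OX5 and 1.81 FPKM in WT at the same summed FPKM, and 1.96 and 1.79 with median-ratio size factors, both also chosen after seeing the data, and the libraries of the lines then overlapped. As deposited it ran from 1.99 to 2.04 FPKM in OX5 and from 1.75 to 1.82 FPKM in WT with 1 library left out. The median SD of log2 values was 0.505 in OX5 and 0.441 in WT with a pseudocount of 0.1, and 0.282 to 0.334 in OX5 and 0.250 to 0.293 in WT with 1 library left out. The causes of these differences between settings were not tested. Deviations of libraries with the same replicate number correlated at −0.06, 0.07, 0.13 and −0.06 across rows, so the numbers are not taken to pair the samples. Few reads per locus limit what can be seen at these loci.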
